A study of Mus musculus with 6 samples.

Results

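The 10 genes examined here carry glucose from its uptake to the transfer of lactate between glia and axons, and were taken by symbol from a list: the glucose transporter gene Slc2a1, the glycolytic enzyme genes Hk1, Pfkm, Aldoc and Pkm, the lactate dehydrogenase genes Ldha and Ldhb, and the monocarboxylate transporter genes Slc16a1, Slc16a3 and Slc16a7. All 10 were found once each among the 52636 genes of the deposited table, and all 10 passed the filter on low values, so none was left out. The RNA came from mouse optic nerve and was sequenced as ribosomal-RNA-depleted total RNA in 6 libraries. In 3 libraries, the hND6 group, the treatment label names a mutant human ND6 with the mutation T14484C, a form of a mitochondrial complex I subunit gene that was delivered to the eye by lentivirus. In the other 3, the mCherry group, the label names only mCherry, a red fluorescent protein, while the treatment text that mentions the lentivirus with mutant ND6 stands beside both groups. Strain, age and sex, the cells reached by the virus, and whether each library was 1 animal are not given in the sources used here, so the p-values below measure the variation from library to library, part of which may be technical.

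Levels are in FPKM, fragments scaled to exon length and to the reads mapped in the library. The deposited tables gave 20253637 to 34758873 reads in genes per library. Markers of the nerve's glia were abundant: 8 oligodendrocyte markers summed to 5130 to 8469 FPKM and 7 astrocyte markers to 1535 to 2510 FPKM. Microglial markers lay at 197 to 337 FPKM, fibroblast markers at 121 to 207 FPKM and pigment epithelium markers at 6.09 to 24.1 FPKM. Of 6 microglial markers 6 were higher in hND6, 4 of them without overlap of the groups, against 48.6% and 12.6% of all tested genes. Schwann cell markers summed to at most 2.27 FPKM, with Pmp2 listed at 0 in every library, and skeletal muscle markers to at most 5.94 FPKM. Some libraries stood apart: neuronal markers were high in mCherry 3 and hND6 1, photoreceptor markers in hND6 2, and erythroid markers in all hND6 libraries (up to 2603 FPKM, above the astrocyte sum in hND6 2), as given beside the genes concerned.

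Myelinated axons are thought to be fed in part by the glia around them. In that scheme glucose enters through GLUT1, the product of Slc2a1, glycolysis turns it into pyruvate, and lactate dehydrogenase turns pyruvate into lactate. Oligodendrocytes pass lactate out through MCT1 (Slc16a1), astrocytes through MCT1 and MCT4 (Slc16a3), and neurons take it up through MCT2 (Slc16a7), after which it can fuel mitochondrial respiration. The comparison of hND6 with mCherry asks whether the transcripts of this route differ between optic nerves labelled with the mutant complex I gene and those labelled with the reporter.

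Slc16a1, the gene for the lactate exporter MCT1, stood 34.8% higher in hND6 than in mCherry, and Slc16a7, the gene for the importer MCT2, stood lower at a mean of 5.90 against 7.22 FPKM, each without overlap of the groups. Aldoc and Ldhb also lay higher without overlap, by 26.6% and 25.5%. The other 6 genes overlapped between the groups. None of the 10 passed the threshold of 0.05 for a limma p-value adjusted over all 16157 tested genes, where 7 genes (0.0433%) did. Of the 10, 3 (Slc16a1, Aldoc and Ldhb) had an unadjusted p under 0.05, all higher. At that p 9.11% of all tested genes lay higher and 6.05% lower. With limma's voom on reads recovered from the FPKM values, 0 of the 10 passed and 3 had an unadjusted p under 0.05. So did 2464 of all 16157 tested genes in either direction. Of the 10 genes 3 lay higher and 1 lower without overlap, against 12.6% and 10.2% of all tested genes.

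The deposited exon length behind each FPKM value is that of 1 listed transcript, to within 1% for 97.6% of 52374 genes compared with the GENCODE M21 annotation of the same build. Levels of different genes can thus be set beside each other only roughly. As deposited, Pkm was the most abundant of the 10 with a mean of 131.8 FPKM over the 6 libraries, followed by Ldhb with 83.5 FPKM, and the ranges of these genes over the libraries did not overlap. Slc16a1 (58.2 FPKM), Ldha (55.6), Slc2a1 (54.5) and Aldoc (52.1) came next, with ranges that overlapped one another; those of Slc16a1, Ldha and Aldoc also overlapped that of Ldhb, while that of Slc2a1 lay below it. Pfkm at 37.3 and Hk1 at 34.0 FPKM overlapped each other as well, and Slc16a7 at 6.56 and Slc16a3 at 1.86 FPKM lay below all others in every library. With the length of all merged exons in place of the deposited one, Ldhb led at 69.4 FPKM, before Pkm at 64.1 and Slc16a1 at 58.2 FPKM, while Ldha came to 30.5 and Hk1 to 17.0 FPKM. The order of these genes therefore depends on the exon length used. Reads behind one value ran from 122 to 11286, and from 1147 up for the genes other than Slc16a3.

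Promoter sequences of 9 of the 10 genes (all but Slc16a7) were available from RefSeq on build GRCm38.p6, and 3 are shown: those of Slc16a1 and Ldhb, which lay higher without overlap, and the upstream promoter of Ldha, a textbook target of hypoxia signalling. Each is the 250 bases before a RefSeq start site, 5′ to 3′ on the strand of the gene. Capitals mark the core of the hypoxia response element, ACGTG or GCGTG, on either strand, so that the E-box CACGTG counts as a pair of overlapping matches.
Slc16a1, chr3:104638414-104638663, plus strand: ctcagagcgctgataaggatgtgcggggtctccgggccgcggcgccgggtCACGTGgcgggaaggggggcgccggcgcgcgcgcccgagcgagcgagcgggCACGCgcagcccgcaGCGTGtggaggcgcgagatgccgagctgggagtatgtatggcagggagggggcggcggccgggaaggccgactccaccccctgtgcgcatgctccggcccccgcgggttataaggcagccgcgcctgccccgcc
Ldhb, chr6:142507958-142508207, minus strand: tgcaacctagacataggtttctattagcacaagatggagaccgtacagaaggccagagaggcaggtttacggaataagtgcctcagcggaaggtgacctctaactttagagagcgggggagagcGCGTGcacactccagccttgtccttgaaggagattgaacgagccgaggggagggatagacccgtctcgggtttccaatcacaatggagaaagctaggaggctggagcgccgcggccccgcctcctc
Ldha, chr7:46845554-46845803, plus strand: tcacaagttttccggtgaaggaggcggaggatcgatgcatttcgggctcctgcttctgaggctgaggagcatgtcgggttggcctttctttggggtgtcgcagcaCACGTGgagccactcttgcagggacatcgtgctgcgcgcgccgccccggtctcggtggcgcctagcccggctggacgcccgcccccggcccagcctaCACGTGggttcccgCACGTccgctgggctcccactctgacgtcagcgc

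The Slc16a1 promoter held 4 matches, among them 1 E-box, and the upstream Ldha promoter 5, among them 2 E-boxes, while the Ldha promoter at the listed start held 1 match and no E-box. Ldhb and the nearest Aldoc promoter held 1 match each. Of the 9 genes, 8 had a match in the promoter nearest to the start listed in the deposited gene table, and Pkm had none there. Among all 32851 RefSeq promoters, 38.6% held at least 1 match, 6.58% held 3 or more, and 6.02% held the E-box. Base composition was not matched in this count, and a match is a stretch of letters, not a bound site. The genes of the hypoxia-induced list did not move one way: of 11 tested genes 6 lay higher and 5 lower in hND6, with a median log2 fold change of 0.01. Ndrg1, the most abundant of them and also a gene of myelinating cells, stood at 353 ± 68.7 FPKM in mCherry and 435 ± 47.2 in hND6 (SD, n = 3 each; log2 fold change 0.31 ± 0.18, SE; limma adjusted p = 0.459). Epas1, which encodes the hypoxia-inducible factor HIF-2 alpha, was the 1 gene of the list whose groups did not overlap (37.6 ± 1.98 against 42.5 ± 1.116 FPKM, adjusted p = 0.331). Egln3, an oxygen-sensing hydroxylase gene, stood at 16.4 ± 2.18 against 19.2 ± 1.63 FPKM (adjusted p = 0.432).

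Slc2a1 (chr4:119108711-119137983, plus strand, in the deposited gene table on GRCm38, as are the positions below) encodes GLUT1, the glucose transporter of glia and of the endothelium of the blood-brain barrier. It stood at 53.1, 59.7 and 41.3 FPKM in mCherry 1 to 3 and at 51.7, 60.5 and 60.5 FPKM in hND6 1 to 3. The groups overlapped, and mCherry 3 held the lowest value. The log2 fold change, here and below hND6 against mCherry on log2(FPKM + 0.5), was 0.17 ± 0.15 (SE), with a 95% interval from -0.19 to 0.54 (limma adjusted p = 0.619). Without mCherry 3 it was 0.03. Endothelial markers, which GLUT1 accompanies in brain vessels, summed to 60.5 to 65.8 FPKM in mCherry and 50.1 to 65.1 in hND6. Slc2a3, the gene for the neuronal transporter GLUT3, stood at 10.3 ± 2.45 against 8.5 ± 1.25 FPKM. Slc2a1 thus made up 82.9 ± 6.0% of the summed FPKM of both genes in mCherry and 87.1 ± 2.34% in hND6 (exact two-sided permutation p = 0.4, 0.1 being the smallest that 3 against 3 libraries allow). The difference of 4.17 percentage points was 1.01 without mCherry 3 and 6.98 without mCherry 2.

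The 9 other glucose transporter genes were all tested, 4 of them higher and 5 lower (median log2 fold change -0.04), and none passed or had an unadjusted p under 0.05. Slc2a8, an intracellular transporter gene, had the smallest p (6.82 ± 1.66 against 8.18 ± 0.098 FPKM, log2 fold change 0.27, adjusted p = 0.482). Slc2a5, a fructose transporter gene of microglia, stood at 1.23 ± 0.348 against 1.93 ± 0.897 FPKM. Slc2a12, after Slc2a3 the most abundant, stood at 8.96 ± 1.38 against 8.79 ± 2.01 FPKM.

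**Figure D1:**
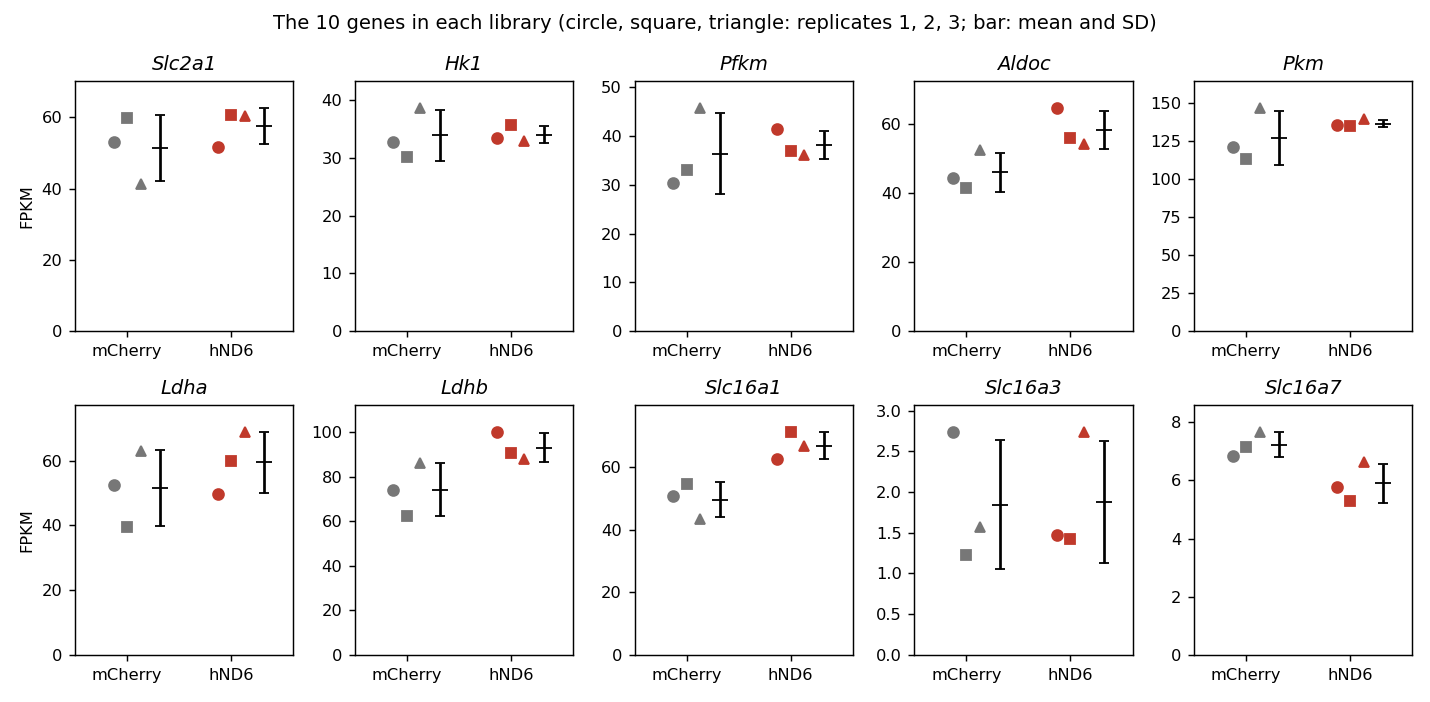
FPKM of the 10 genes (vertical axes, from 0) in the 3 mCherry libraries (grey) and the 3 hND6 libraries (red), with marker shape for the replicate number and a bar for the mean and SD of each group. Slc16a1, Aldoc and Ldhb lie higher in all 3 hND6 libraries and Slc16a7 lower, while mCherry 3 is the highest library for Hk1, Pfkm, Pkm and Slc16a7.

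Hk1 (chr10:62268855-62340542, minus strand) encodes hexokinase 1, which traps glucose in the cell by phosphorylation. Its values were 32.8, 30.2 and 38.7 FPKM in mCherry and 33.5, 35.7 and 33.0 FPKM in hND6. The hND6 values lay within the mCherry range. Its log2 fold change was 0.01 ± 0.11 (95% interval -0.24 to 0.27, adjusted p = 0.963), and its sign turned with the scaling and with the libraries used. Among the hexokinase genes Hk1 made up 75.8 ± 8.25% of summed FPKM in mCherry and 76.3 ± 2.56% in hND6 (exact permutation p = 1). Most of the rest came from Hk2, at 9.02 ± 4.41 against 8.57 ± 1.42 FPKM. Hk3 stood under 2.1 FPKM in every library.

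Pfkm (chr15:98108471-98132447, plus strand) encodes the muscle type of phosphofructokinase, which catalyses the committed step of glycolysis. It stood at 30.4, 33.1 and 45.8 FPKM in mCherry and at 41.6, 36.9 and 36.2 FPKM in hND6, so that mCherry 3 lay above all hND6 libraries and the other mCherry libraries below them. With all libraries the log2 fold change was 0.09 ± 0.16 (95% interval -0.30 to 0.48, adjusted p = 0.826) and 0.26 ± 0.09 without mCherry 3 (adjusted p = 0.175). Of the summed FPKM of Pfkm, Pfkl and Pfkp, Pfkm made up 49.0 ± 5.62% in mCherry and 52.1 ± 2.82% in hND6 (exact permutation p = 0.5). Muscle itself left little trace: the creatine kinase gene Ckm was at most 0.0601 FPKM in any library.

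Aldoc (chr11:78322968-78327781, plus strand) encodes aldolase C, the aldolase of brain and in particular of astrocytes. Its values were 44.3, 41.3 and 52.3 FPKM in mCherry and 64.6, 55.9 and 54.1 FPKM in hND6. All 3 hND6 libraries lay above all mCherry libraries, with hND6 1 highest and a gap of under 2 FPKM between hND6 3 and mCherry 3. This gave a log2 fold change of 0.34 ± 0.12 (95% interval 0.06 to 0.62, adjusted p = 0.274). It came to 0.20 with each library scaled to a constant sum and again to 0.20 once the dependence of values on gene span was taken out per library, and in both settings, as after quantile normalisation, the groups overlapped. The 7 astrocyte markers, 5 of them higher in hND6, summed to 1535 to 2045 FPKM in mCherry and 2112 to 2510 in hND6. Gfap made up most of this sum in every library, at 907 to 1245 FPKM in mCherry and 1276 to 1619 in hND6. Log2 fold changes of the 7 ran from -0.035 (Slc1a3) to 0.65 (S100b), with Slc1a2 at -0.034 and Aldh1l1 at 0.003. These markers are named after their values were seen. Per 1000 FPKM of all 7 markers, thus mainly against Gfap, Aldoc came to 21.7, 21.5 and 34.0 FPKM in mCherry and 30.6, 23.2 and 21.6 in hND6, which overlapped (exact permutation p = 0.9).

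Aldoa, the aldolase of most tissues, was the most abundant glycolytic gene examined, at 260 ± 56.7 against 315 ± 23.6 FPKM (log2 fold change 0.30, adjusted p = 0.454). The share of Aldoc among the aldolase genes was accordingly close in the groups, at 15.2 ± 1.17% in mCherry and 15.6 ± 2.20% in hND6 (exact permutation p = 0.9).

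Pkm (chr9:59656368-59679375, plus strand) encodes the pyruvate kinase of brain and most other tissues, the last enzyme of glycolysis. It stood at 121, 113 and 147 FPKM in mCherry and at 136, 135 and 139 FPKM in hND6. The hND6 libraries lay close together (coefficient of variation 1.70%), while the mCherry libraries spread on both sides of them (13.9%). Its log2 fold change was 0.11 ± 0.11 (95% interval -0.16 to 0.39, adjusted p = 0.681). Without mCherry 3 it was 0.22 ± 0.07 (adjusted p = 0.163). The liver gene Pklr was at most 0.0805 FPKM, so Pkm accounted for at least 99.9% of pyruvate kinase FPKM in each library. The values do not separate the PKM1 and PKM2 splice forms.

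Of the 18 other glycolytic enzyme genes 13 were tested. Of these 10 lay higher and 3 lower, with a median log2 fold change of 0.03, and none passed, had an unadjusted p under 0.05 or kept the groups apart. Besides Aldoa, Pgk1 (31.4 ± 4.86 against 37.9 ± 5.85 FPKM) and Tpi1 (76.3 ± 19.2 against 94.7 ± 13.2) had the smallest p. Gapdh, the next in abundance, stood at 128, 144 and 262 FPKM in mCherry and 215, 217 and 178 in hND6, with mCherry 3 again highest. Gapdh and Ldha have processed copies in the genome, so reads could have been split or lost in counting.

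Library mCherry 3 stood high for several of these enzymes and also for neuronal genes. The 7 neuronal markers summed to 44.3, 28.0 and 535 FPKM in mCherry 1 to 3 and to 200, 32.9 and 52.7 FPKM in hND6 1 to 3. With mCherry 3 left out, 6 of the 10 genes lay higher without overlap (Hk1, Pfkm, Aldoc, Pkm, Ldhb and Slc16a1) against 20.0% of all tested genes, and 0 passed, where 0.817% of all tested genes did. Of the other glycolytic enzymes 6 of 13 then lay higher without overlap, and their median log2 fold change was 0.13. With hND6 1 left out as well, which leaves 2 libraries a group, 8 of the 10 genes lay higher without overlap against 26.2% of all tested genes, and 0 passed. The part of neuronal RNA in these differences was not tested beyond these values.

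**Figure D2:**
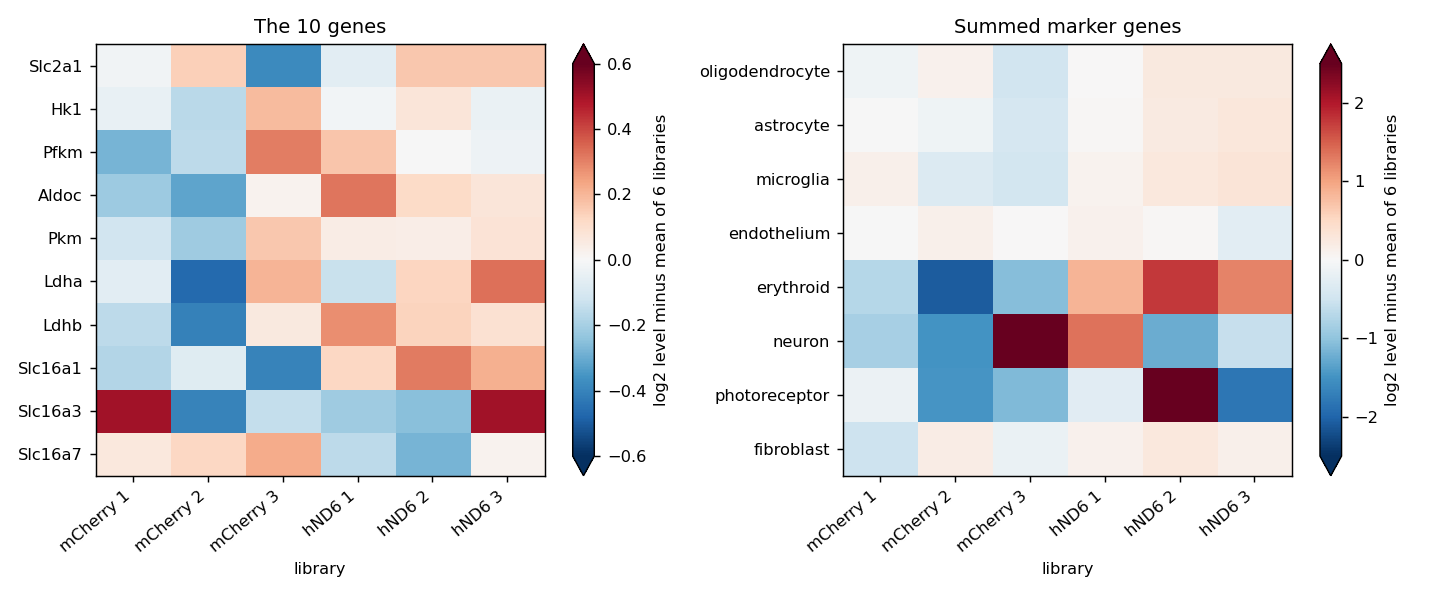
Log2 level of each of the 10 genes (left) and of summed marker genes of 8 cell types (right) in the 6 libraries, as a difference from the mean of the 6 libraries, with colours saturating beyond the ends of each scale. Neuronal markers are far above their mean in mCherry 3 and hND6 1, erythroid markers are above theirs in the 3 hND6 libraries, and photoreceptor markers in hND6 2 (192 FPKM summed, at most 6.13 elsewhere).

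Lactate dehydrogenase interconverts pyruvate and lactate as a tetramer of A and B subunits, the A subunit being the one usually linked to lactate production and the B subunit to lactate use. Ldha (chr7:46847082-46855626, plus strand) stood at 52.4, 39.4 and 63.0 FPKM in mCherry and at 49.8, 59.8 and 68.9 FPKM in hND6. The groups overlapped over most of their ranges. The log2 fold change was 0.22 ± 0.20 (95% interval -0.26 to 0.69, adjusted p = 0.643), and leaving out 1 library moved it from 0.038 (mCherry 2) to 0.37 (mCherry 3).

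Ldhb (chr6:142490249-142507957, minus strand) stood at 74.1, 62.2 and 86.1 FPKM in mCherry and at 100.3, 90.7 and 87.9 FPKM in hND6. The groups did not overlap, though hND6 3 lay less than 2 FPKM above mCherry 3. This gave a log2 fold change of 0.34 ± 0.13 (95% interval 0.02 to 0.66, adjusted p = 0.314), and with each library scaled to a constant sum it was 0.19 and the groups overlapped, as they did after quantile normalisation and median-of-ratios scaling. Ldha made up 40.8 ± 1.80% of the summed FPKM of the pair in mCherry and 39.0 ± 5.41% in hND6 (exact permutation p = 0.7). The balance between the subunit genes thus spread more among the hND6 libraries (33.2, 39.7 and 43.9%) than it differed between the groups.

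Slc16a1 (chr3:104638668-104658462, plus strand) had the smallest p of the 10 genes. Its values were 50.7, 54.6 and 43.4 FPKM in mCherry and 62.5, 71.2 and 66.6 FPKM in hND6, with group means of 49.5 ± 5.69 and 66.8 ± 4.37 FPKM (SD, n = 3 each). Every hND6 library lay above every mCherry library by at least 7 FPKM. On the log2 scale the difference was 0.43 ± 0.11 (95% interval 0.17 to 0.69, unadjusted p = 0.0062, limma adjusted p = 0.199). It ranked 502 by p among the tested genes, of which 9.11% had an unadjusted p under 0.05 and lay higher and 6.05% lay lower. The groups also stayed apart with each library scaled to a constant sum and after median-of-ratios scaling or quantile normalisation. They did so too once the dependence of values on gene span was taken out. Leaving out libraries or changing the filter or pseudocount cannot make separate groups overlap, so these settings do not count here. Log2 fold changes ran from 0.29 to 0.50 over all 20 alternatives. The adjusted p ran from 0.103 to 0.604.

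Several glial markers lay higher along with Slc16a1. Of 8 oligodendrocyte markers 7 were higher in hND6, and their sum ran from 5130 to 7711 FPKM in mCherry and from 7258 to 8469 in hND6. Per 1000 FPKM of these markers Slc16a1 came to 7.61, 7.08 and 8.45 FPKM in mCherry and 8.61, 8.41 and 7.88 in hND6, which overlapped (exact permutation p = 0.3). Per 1000 FPKM of astrocyte markers, mostly Gfap, it came to 27.1 ± 2.05 and 28.6 ± 1.77 FPKM (exact permutation p = 0.5). Erythroid markers summed to 467, 180 and 366 FPKM in mCherry 1 to 3 and 1365, 2603 and 1791 in hND6 1 to 3. Library hND6 2, highest in Slc16a1, also held the most photoreceptor RNA, at a marker sum of 192 FPKM. The part of erythroid or photoreceptor RNA in the Slc16a1 difference was not tested. In bulk tissue, more cells of a type and more RNA per cell cannot be told apart. Against the glucose transporter gene Slc2a1 the ratio of Slc16a1 was 0.953, 0.914 and 1.05 in mCherry and 1.21, 1.18 and 1.10 in hND6, without overlap (exact permutation p = 0.1, adjusted over 6 ratios 0.3).

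Slc16a3 (chr11:120949081-120960868, plus strand), the gene for the high-capacity lactate exporter MCT4, was scarce at 2.74, 1.23 and 1.57 FPKM in mCherry and 1.47, 1.42 and 2.74 FPKM in hND6. One library of each group reached the same high value and the rest lay together. The log2 fold change was 0.03 ± 0.32, with a 95% interval from -0.74 to 0.80 (adjusted p = 0.975), so a change of 1.5 times in either direction lies within the interval.

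Slc16a7 (chr10:125219270-125328963, minus strand), the gene for the high-affinity importer MCT2, was the 1 gene of the 10 that lay lower in hND6. Its values were 6.84, 7.15 and 7.68 FPKM in mCherry and 5.79, 5.28 and 6.62 FPKM in hND6. The groups did not overlap, although hND6 3 and mCherry 1 differed by less than 0.3 FPKM. Its log2 fold change was -0.28 ± 0.11 (95% interval -0.55 to 0.0012, unadjusted p = 0.0507, adjusted p = 0.331). Slc16a7 spans 109694 bp, the longest of the 10 genes, and once the dependence of values on gene span was taken out per library its log2 fold change was -0.11 and the groups overlapped. Of the 7 neuronal markers 6 had lower fitted values in hND6, but all 7 overlapped between the groups. Library mCherry 3, richest in them, had the highest Slc16a7 value. In hND6 1, the next richest at a sum of 200 FPKM, Slc16a7 stood at 5.79 FPKM, below every mCherry library. In mCherry 2, the poorest at a sum of 28.0 FPKM, Slc16a7 stood at 7.15 FPKM. The part of neuronal RNA in the Slc16a7 difference was not tested, and uptake of lactate was not measured. Without mCherry 3 the log2 fold change of Slc16a7 was -0.23. Leaving out a library cannot make separate groups overlap, so only this size is given.

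Within a library, Slc16a1 took a larger part of the transporter transcripts in hND6. It made up 84.1, 86.7 and 82.4% of the summed FPKM of Slc16a1, Slc16a3 and Slc16a7 in mCherry and 89.6, 91.4 and 87.7% in hND6. The groups did not overlap, and the difference of 5.15 percentage points was larger than either SD (2.15 and 1.86). The exact permutation p was 0.1, the smallest possible, and 0.7 when adjusted over the 7 shares computed. Slc16a1 divided by Slc16a7 gave 7.41, 7.63 and 5.65 in mCherry and 10.8, 13.5 and 10.1 in hND6 (exact permutation p = 0.1, adjusted over 6 ratios 0.3). Both genes already separated the groups, in opposite directions, so this ratio had to separate them too and adds no support. The share largely repeats the same differences. A share or ratio within a library does not depend on how the libraries were scaled. It can still carry the dependence of values on gene span, which was not taken out of the shares and ratios. Slc16a1 spans 19795 bp and Slc16a7 109694 bp.

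**Figure D3:**
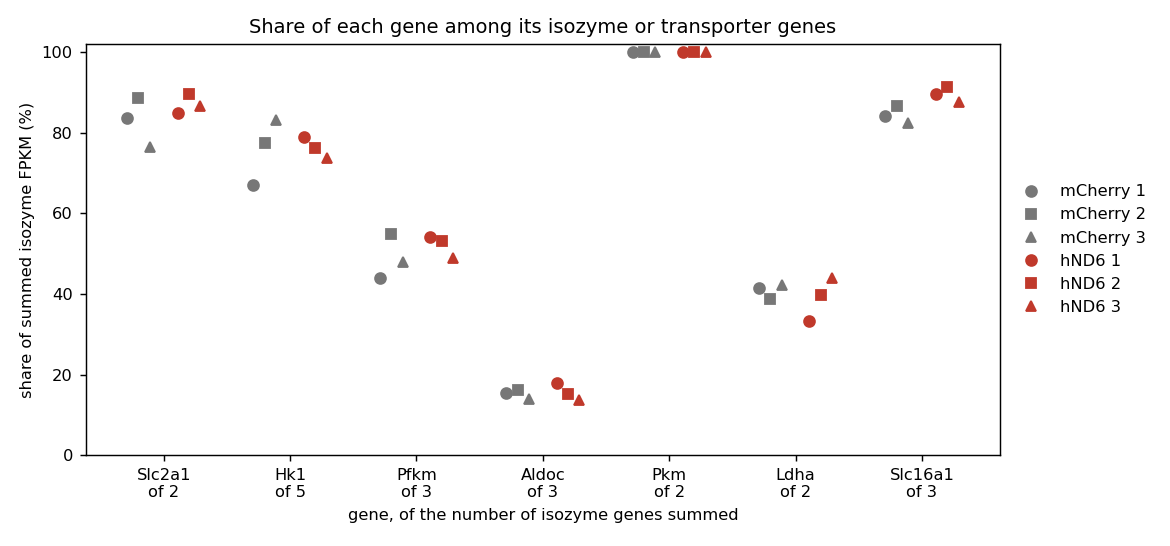
Share in percent (vertical axis) of Slc2a1, Hk1, Pfkm, Aldoc, Pkm, Ldha and Slc16a1 in the summed FPKM of their isozyme or transporter genes, per library. The Slc16a1 share is 82.4 to 86.7% in the mCherry libraries and 87.7 to 91.4% in the hND6 libraries, and the other 6 shares overlap between the groups.

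Partner proteins of the lactate transporters and the next steps of pyruvate use were given by a list of 10 genes, of which 7 were tested, 5 higher and 2 lower (median log2 fold change 0.19). None passed, and 2 had an unadjusted p under 0.05 and lay higher, against 9.11% of all tested genes. Both encode the chaperones that bring monocarboxylate transporters to the cell surface. Basigin, Bsg, stood at 107, 101.8 and 133 FPKM in mCherry and 137, 145 and 142 FPKM in hND6 (log2 fold change 0.32 ± 0.12, adjusted p = 0.284). Embigin, Emb, stood at 13.1, 12.7 and 10.97 FPKM in mCherry and 19.4, 14.8 and 15.5 FPKM in hND6 (0.41 ± 0.13, adjusted p = 0.254). Neither gene's groups overlapped. The mitochondrial pyruvate carrier genes lay in different directions, with Mpc2 at 24.2 ± 5.34 against 31.4 ± 2.98 FPKM (adjusted p = 0.337) and Mpc1 at 64.9 ± 1.595 against 60.6 ± 0.223 FPKM (lower without overlap, adjusted p = 0.52).

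Pyruvate dehydrogenase, which commits pyruvate to respiration, and its regulators showed no common direction. Of 11 tested genes 6 lay higher and 5 lower (median log2 fold change 0.04), and 0 passed. The kinase gene Pdk2, an inhibitor of the complex, stood at 31.6 ± 1.55 against 35.8 ± 1.13 FPKM without overlap (log2 fold change 0.18, adjusted p = 0.317). The catalytic subunit gene Pdha1 stood at 35.2 ± 4.86 against 40.9 ± 1.09 FPKM, and Dlat, for the acetyltransferase subunit, at 10.6 ± 1.30 against 9.44 ± 0.195 FPKM (adjusted p = 0.385 and 0.525).

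The pentose phosphate pathway branches off glycolysis. Of 7 pentose phosphate genes, which make NADPH and ribose from glucose 6-phosphate, 5 lay higher (median log2 fold change 0.24), 4 of them without overlap (12.6% of all tested genes) and with an unadjusted p under 0.05 (9.11%), and 0 passed. Tkt, transketolase, stood at 47.4, 49.4 and 45.7 FPKM in mCherry and 61.8, 61.1 and 64.0 FPKM in hND6 (0.39 ± 0.07, adjusted p = 0.153). Taldo1, transaldolase, stood at 73.9, 81.8 and 71.0 against 92.4, 105.9 and 109.3 FPKM (0.44 ± 0.10, adjusted p = 0.178). Pgd, an NADPH-making enzyme, stood at 20.3 ± 1.27 against 23.95 ± 0.564 FPKM (0.24 ± 0.08, adjusted p = 0.257). G6pdx, the first and rate-limiting enzyme, is named as the last of the 4 after its values were seen (17.8 ± 3.06 against 22.0 ± 0.451 FPKM, adjusted p = 0.322).

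Of 6 genes that tune glycolysis 5 were tested, with 2 higher and 3 lower. Bpgm, which makes the 2,3-bisphosphoglycerate of red blood cells, stood at 42.7, 43.8 and 38.1 FPKM in mCherry and 53.3, 60.5 and 58.8 FPKM in hND6 (log2 fold change 0.47 ± 0.09, adjusted p = 0.155). Erythroid markers moved with it, all 6 of them higher without overlap, against 12.6% of all tested genes. Their sums were 180 to 467 FPKM in mCherry and 1365 to 2603 FPKM in hND6. Their part in the Bpgm difference was not tested. Pfkfb4 stood at 11.7 ± 0.801 against 10.2 ± 1.06 FPKM (lower without overlap, adjusted p = 0.43), and the related Pfkfb3, which raises the activator fructose 2,6-bisphosphate, at 20.8 ± 4.82 against 17.6 ± 2.25 FPKM.

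Glycogen, the glucose store of astrocytes, was represented by 11 tested genes, 8 higher and 3 lower (median log2 fold change 0.16), with 0 passing and 4 higher without overlap (12.6% of all tested genes). Ppp1r3c, which targets a phosphatase to glycogen, stood at 11.04 ± 0.927 against 13.9 ± 0.703 FPKM (0.32 ± 0.09, adjusted p = 0.227). The brain phosphorylase gene Pygb stood at 61.3 ± 8.60 against 74.2 ± 1.88 FPKM and the muscle type Pygm, which astrocytes also use, at 5.06 ± 0.398 against 6.41 ± 0.943 FPKM (adjusted p = 0.318 and 0.339). The last of the 4, Pgm2, was named after its values were seen (0.17, adjusted p = 0.417). Ugp2, for the enzyme that makes UDP-glucose, stood at 33.8 ± 1.6 against 32.2 ± 0.661 FPKM. Without mCherry 3 the median of the list was 0.04.

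**Figure D4:**
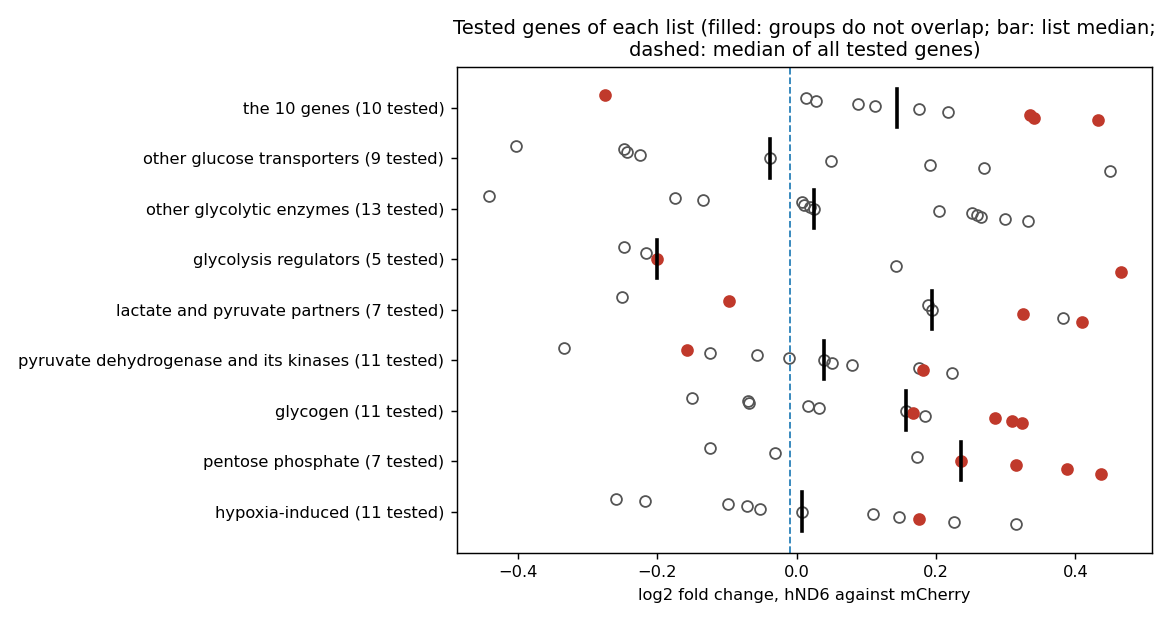
Log2 fold change, hND6 against mCherry, of each tested gene of the 10 examined here and of 8 pathway lists. Filled points mark genes whose groups do not overlap, bars the list medians (0.14 for the 10 genes), and the dashed line the median of all tested genes (-0.01). No gene shown passed the adjusted threshold.

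Over the 8 pathway lists 74 of 84 genes were tested and 0 passed in limma, with 10 at an unadjusted p under 0.05, all higher on the deposited scale. Of all tested genes 9.11% lay higher and 6.05% lower at that p. Limma's voom also called 0, with 10 at an unadjusted p under 0.05, beside 2464 of all 16157 tested genes. On the deposited scale, groups did not overlap for 13 genes higher and 3 lower, against 12.6% and 10.2% of all tested genes. With each library scaled to a constant sum these counts were 3 higher and 3 lower at an unadjusted p under 0.05, and 3 and 3 without overlap. On that scale 2729 of all 16157 tested genes had an unadjusted p under 0.05 in either direction. Without mCherry 3, 18 genes had an unadjusted p under 0.05 and lay higher, and 3 lay lower. In that setting 3561 of all 16035 tested genes had such a p in either direction. The median log2 fold change of the 10 genes was 0.14, beside -0.01 for all tested genes, of which 48.6% lay higher, and 9 of the 10 lay higher. With each library scaled to a constant sum of FPKM the median of all tested genes was -0.14, 5 of the 10 lay higher, and their median lay 0.14 above that of all genes, beside 0.15 on the deposited scale. On the deposited scale, leaving out 1 library moved this distance from 0.039 without mCherry 2 to 0.24 without mCherry 3. With each library scaled to a constant sum, Hk1, Pfkm, Pkm and Slc16a3 had negative log2 fold changes.

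**Figure D5:**
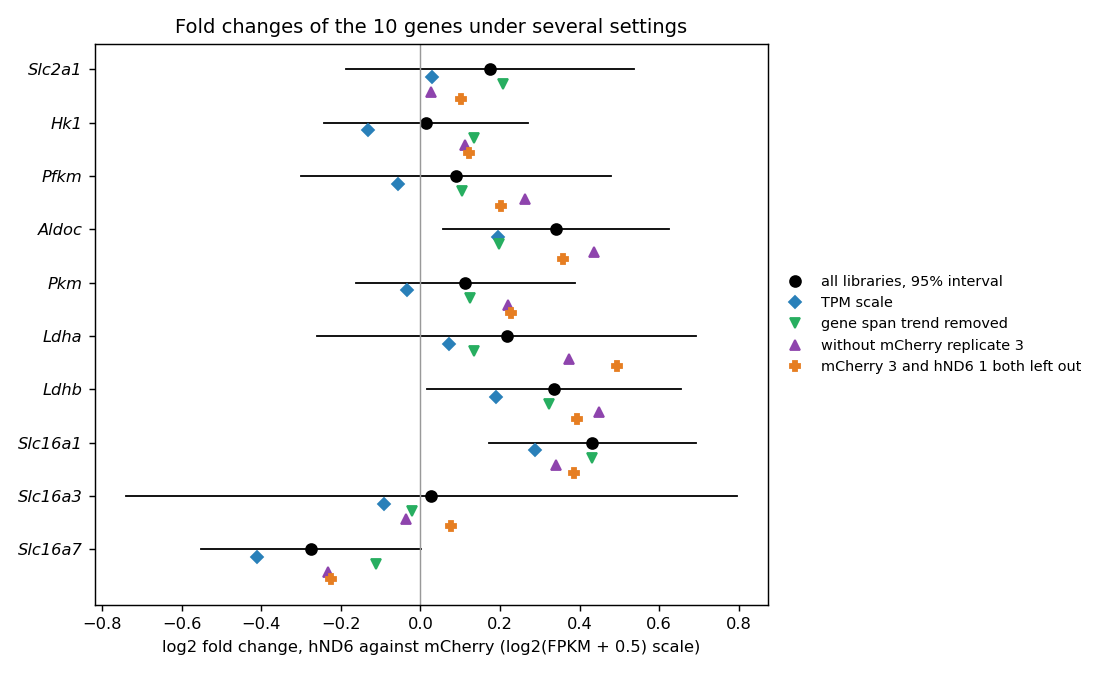
Log2 fold change of the 10 genes (horizontal axis) over all 6 libraries with its 95% interval (black), and under 4 other settings (coloured). Slc16a1 stays between 0.29 and 0.43 in the settings shown and Slc16a7 stays below 0, while Hk1, Pfkm, Pkm and Slc16a3 lie on both sides of 0.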

How the data were processed

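Optic nerve RNA of 3 mCherry and 3 hND6 libraries was analysed from FPKM values (fragments per exon length and mapped reads), which the authors computed and deposited for 52636 genes together with a gene table of symbols, positions and exon lengths. Among tools, STAR, HTSeq, Trim Galore and CASAVA 1.4 appear in the submitters' processing notes, as do the builds GRCm38 and mm10, all without a stated role. All 6 single-library tables equalled the combined table. Multiplied by exon length, at least 99.99% of the deposited FPKM values above 0 came out as whole reads (within 0.1 read), which gave 20253637 to 34758873 reads in genes per library. These reads served for limma's voom. Other listed genes overlapped Slc2a1, Pkm and Slc16a1 on the same strand, and Slc2a1 and Slc16a7 on the opposite strand. The effect of these overlaps on the counts was not tested.

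A gene entered the test when its mean reached 0.5 FPKM, and values were taken as log2(FPKM + 0.5) and fitted with limma 3.58.1 in R 4.3.3 (intensity trend, Benjamini-Hochberg adjustment over all 16157 tested genes, threshold 0.05). This scale understates changes of low genes. The test was checked on simulated data. Shares and ratios within libraries used exact two-sided permutation tests.

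The 10 genes, the pathway and marker lists and the alternatives were chosen with earlier results of these data known. Besides the 10 genes, the text names of each pathway list the 3 genes of smallest p and the 2 most abundant, and the isozymes of the shares. Of Aldoa, listed under 2 identifiers, the one with nearly all reads was used. One gene of the lists is not reported here by name. Alternatives covered pseudocount, filter, scaling, gene span, test, covariates and left-out libraries. The merged exon length, and the pathway medians without 2 libraries, were added after the data were seen. The ratios within libraries were not among the planned results.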

Additional observations from a re-analysis of the deposited data

How the results depend on the processing

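Under all 20 alternatives 0 of the 10 genes and 0 pathway genes passed the adjusted threshold, while the calls over all genes ran from 0 (voom, the replicate block, or without mCherry 2) to 131 (without mCherry 3), against 7. The pseudocount, the filters, the median-of-ratios scaling, no trend, robust moderation, voom and a covariate from Xist alone reversed the direction of none of the 10 genes. That covariate, meant for sex, split the libraries at the middle of the Xist range. It would do so even if the animals did not differ in sex. The number of the 10 genes whose groups did not overlap, 4 with all libraries as deposited, was 2 on the constant-sum scale, 2 after quantile normalisation and 2 when the trend with gene span was taken out. It was 4 to 7 when single libraries were left out and 9 with mCherry 3 and hND6 1 both left out. Leaving out libraries can only keep or raise this number. Of all tested genes 12.6% lay higher and 10.2% lower without overlap with all libraries. The higher share was 20.0% without mCherry 3 and 26.2% with both left out, and was not computed for the other settings. The median of the 10 genes was -0.0014 on the constant-sum scale. On that scale Hk1 had -0.13, Pfkm -0.055, Pkm -0.033 and Slc16a3 -0.091. After quantile normalisation Hk1 had -0.0090 and Pkm -0.060, and without the span trend Slc16a3 had -0.022. Leaving out single libraries gave -0.065 to 0.11 for Hk1, -0.029 to 0.26 for Pfkm, 0.028 to 0.29 for Slc2a1, 0.033 to 0.22 for Pkm, 0.038 to 0.37 for Ldha and -0.22 to 0.29 for Slc16a3. It moved the difference in share, in percentage points, from -3.98 to 4.16 for Hk1, 1.01 to 6.98 for Slc2a1, 0.57 to 6.14 for Pfkm, -0.74 to 1.42 for Aldoc, -0.020 to 0.0094 for Pkm and -4.37 to 0.995 for Ldha. The cause of these changes was not tested. With the replicate block 0 genes passed, and 1 of the 10 had an unadjusted p under 0.05, as had 1789 of all 16157 tested genes. Deviations of same-numbered libraries correlated by -0.42, 0.36 and -0.20, so the numbers were not taken to pair the libraries.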
